A study of Mus musculus with 4 samples.

Results

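The Notch pathway genes described here are 10 named genes, all of which had a row in the count files of 24453 gene symbols. They were chosen by name and not by their values: the receptors Notch1, Notch2 and Notch3, the ligands Jag1, Jag2 and Dll1, the target genes Hes1 and Hey1, the DNA-binding factor Rbpj, and the receptor-modifying enzyme gene Lfng. All 10 were among the 14550 genes that passed the filter on low counts. RNA was sequenced from newborn mouse epidermis at postnatal day 0, with 2 libraries of the genotype Ring1a-/- Ring1b-/I53A (called I53A) and 2 libraries that the labels name only as control (CTL). The I53A mice lacked Ring1a, the product of Ring1, and carried 1 null allele and 1 I53A allele of Ring1b, the product of Rnf2. I53A is a substitution that removes the ubiquitin ligase activity of Ring1b, so that both catalytic subunits of Polycomb repressive complex 1 (PRC1), which ubiquitinates histone H2A, were absent or inactive. The effects of these alleles cannot be told apart from each other. Which alleles the control animals carried, and how many animals stand behind a library, is not given in the sources used here, so the p-values measure the spread between these libraries, which may be technical in part. Cells of the interfollicular epidermis had been sorted from back skin on EpCAM, Sca1 and a high level of α6-integrin.

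Notch receptors are cell surface proteins that are cut when a Jagged or Delta-like ligand on a neighbouring cell binds them. The released intracellular part enters the nucleus and joins RBPJ on DNA to switch on target genes, among them the bHLH repressors of the HES and HEY families. In the epidermis Notch signalling is known for moving keratinocytes from the basal layer into differentiation, with Notch1 the best studied receptor and HES1 a target that holds spinous cells in their early suprabasal state.

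In I53A epidermis Notch2 rose to 1.70 times its CTL level, and none of the other 9 genes passed the test in either direction. Hes1, at 1.38 times, and Jag2, at 0.822 times the CTL level, did not pass. With Notch2 they were the 3 of 10 genes whose groups did not overlap, which was so for 47.9% of all tested genes. Notch1, Jag1, Dll1, Rbpj and Lfng had 95% intervals of the fold change that lay within 1.5-fold in both directions. The test was edgeR's quasi-likelihood test with Benjamini-Hochberg adjustment over all 14550 genes. By it 5.68% of all tested genes were higher and 1.04% were lower in I53A, against 1 of 10 Notch genes higher and 0 lower. In either direction 6.71% of all tested genes were called, and beside that share the 1 call is read as a result on Notch2 and not on the 10 genes as a group. At an unadjusted p under 0.05 Notch2 and Hes1 were higher and 0 of the 10 were lower, and DESeq2 and limma-voom also called 1 higher and 0 lower (6.47% and 1.51% of all genes by DESeq2, 4.80% and 0.935% by limma-voom). The median log2 fold change was -0.01 over the 10 genes and -0.01 over all tested genes.

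**Figure D1:**
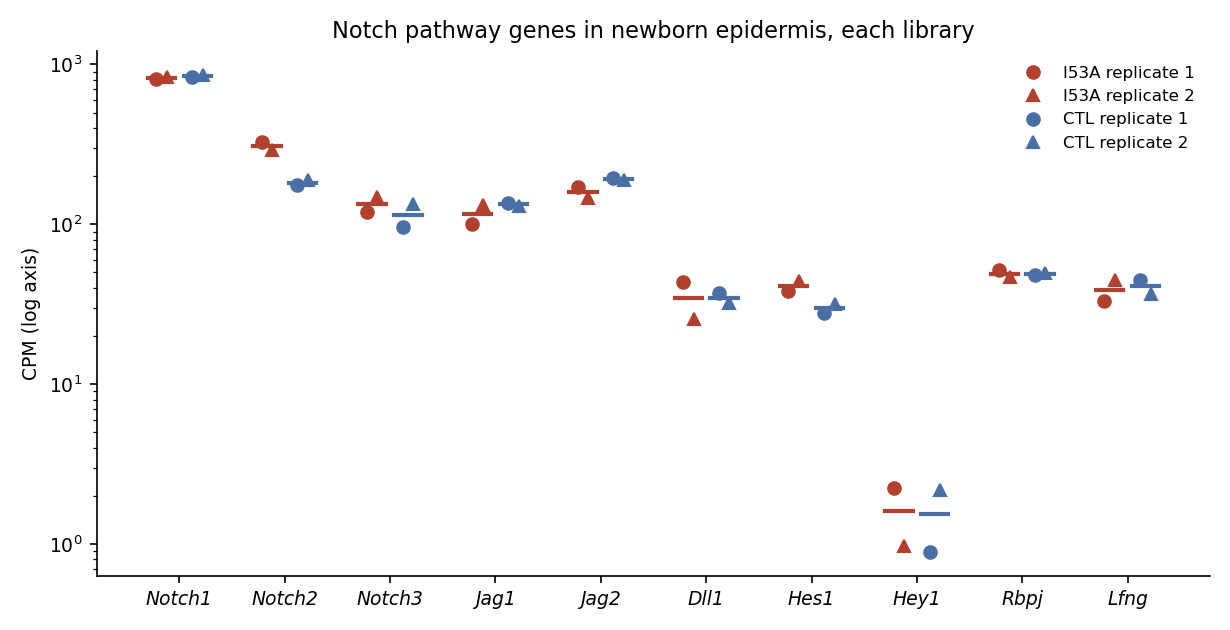
Level of each of the 10 Notch pathway genes in each library, in CPM (counts scaled to the TMM-adjusted library size) on a log axis. Circles are replicate 1 and triangles replicate 2, I53A in red to the left of CTL in blue, with a bar at the mean of each group (n = 2). Notch2 is separated between the groups (328 and 291 CPM in I53A, against 176 and 189 CPM in CTL), as are Hes1 and Jag2 by smaller gaps, and the other 7 genes overlap.

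The total counts were 15966412 and 21543385 in the I53A libraries and 17010432 and 15505018 in the CTL libraries. Ring1, whose loss the genotype states, had 2.54 and 2.91 CPM in I53A and 24.2 and 33.3 CPM in CTL, a fall that matched the labels. Rnf2 had 58.9 and 59.1 CPM in I53A and 58.5 and 45.8 CPM in CTL, and its level says nothing of the substitution, which gene counts cannot show. Replicates differed by more than sampling noise in both groups and each library counted as 1 sample. The sorted cells held basal epidermal markers at 20919 to 23705 CPM in sum in I53A and 30280 to 33853 CPM in CTL (7 genes, among them Krt5 and Krt14). Of these Krt15 fell and 6 did not pass, beside 1.04% of all tested genes lower. Of markers of other cell types, the endothelial list summed to 24.3 to 33.7 CPM in I53A and 13.5 to 33.9 CPM in CTL. The sort markers Epcam, Ly6a and Itga6 summed to 959 to 1157 CPM in I53A and 1037 to 1104 CPM in CTL. Itga6 held most of that sum, and the groups overlapped for Itga6 and Ly6a. Epcam had 133 and 159 CPM in I53A and 107 and 85.9 CPM in CTL (adjusted p = 0.0635, edgeR). Both I53A libraries lay above both CTL libraries for Epcam, as for 24.5% of all tested genes. No tested gene of the suprabasal, sort, endothelial, melanocyte, immune and Merkel cell lists passed in either direction. Many of their genes were not tested and could not pass. These were 3 of 6 Merkel, 4 of 7 immune, 3 of 7 melanocyte, 2 of 8 endothelial and 1 of 7 suprabasal genes.

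The promoter windows of the 3 receptors are shown so that these related genes can be set side by side, and no test relates their sequence to the changes in transcript level. Windows from 250 bases before to 50 bases after the annotated start were taken from RefSeq on GRCm38.p6, where 8 of the 10 genes had at least 1 window. Hes1 and Hey1 had none in that table. The Notch1 window is chr2:26503773-26504072 on the minus strand, the Notch2 window is chr3:98013288-98013587 on the plus strand and the Notch3 window is chr17:32166841-32167140 on the minus strand, printed 5′ to 3′ along the gene with each CpG in capitals.
Notch1: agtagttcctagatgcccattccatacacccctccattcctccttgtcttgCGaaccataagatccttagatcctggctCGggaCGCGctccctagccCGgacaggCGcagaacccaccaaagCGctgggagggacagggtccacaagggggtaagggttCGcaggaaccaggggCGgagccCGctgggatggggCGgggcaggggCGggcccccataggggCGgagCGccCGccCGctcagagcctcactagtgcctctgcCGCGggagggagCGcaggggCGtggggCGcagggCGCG
Notch2: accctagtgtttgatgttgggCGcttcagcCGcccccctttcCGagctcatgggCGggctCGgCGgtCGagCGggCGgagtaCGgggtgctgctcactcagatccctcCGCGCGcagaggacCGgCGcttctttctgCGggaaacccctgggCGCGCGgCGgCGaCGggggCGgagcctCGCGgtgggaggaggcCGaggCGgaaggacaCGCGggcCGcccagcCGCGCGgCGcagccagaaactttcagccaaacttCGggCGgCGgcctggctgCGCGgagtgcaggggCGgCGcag
Notch3: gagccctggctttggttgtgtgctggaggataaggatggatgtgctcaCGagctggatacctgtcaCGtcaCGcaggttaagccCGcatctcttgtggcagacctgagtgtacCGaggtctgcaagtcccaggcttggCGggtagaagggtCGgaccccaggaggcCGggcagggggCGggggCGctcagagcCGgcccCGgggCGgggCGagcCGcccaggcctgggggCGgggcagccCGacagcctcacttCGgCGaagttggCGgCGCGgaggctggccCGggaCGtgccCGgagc
The Notch1 window held 23 CpG dinucleotides and was 68.3% G and C, the Notch2 window held 41 and was 73.0%, and the Notch3 window held 25 and was 70.0%, beside medians of 7 CpG and 52.7% over 32841 windows of the same length. The 8 genes had 10 windows, and each held more CpG than the median window, from 15 in the upstream Dll1 window to 63 in the Jag2 window.

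The RBPJ core motif, TGGGAA on either strand, was searched in the same windows, where 25.6% of all windows held it. It was absent as these letters from the windows of the receptors and ligands and present in those of Rbpj and Lfng. The Lfng window, chr5:140607091-140607390 on the plus strand, is shown with the motif in capitals because Lfng is known as a Notch target in the segmenting mouse embryo.
Lfng: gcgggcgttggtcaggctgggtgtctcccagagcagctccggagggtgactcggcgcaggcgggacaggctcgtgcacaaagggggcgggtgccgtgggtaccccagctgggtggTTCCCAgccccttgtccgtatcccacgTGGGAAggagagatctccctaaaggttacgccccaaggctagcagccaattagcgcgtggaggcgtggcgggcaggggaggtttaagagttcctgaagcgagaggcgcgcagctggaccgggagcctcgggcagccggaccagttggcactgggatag
The leftmost bases of the 2 matches lay at positions -135 and -108, counted back from the start of Lfng, the first match being on the opposite strand. The second overlaps an E-box, CACGTG, which 7.15% of all windows held and no other window of these genes. The N-box CACNAG, a motif bound by HES repressors, was in 42.5% of all windows and in those of Notch1, Notch2, Notch3, Lfng and 1 of the 2 Dll1 windows. A match of letters is a description of the sequence and not a bound site.

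Notch2 (ENSMUSG00000027878.11, GRCm38 chromosome 3 from 98013527 to 98150361, plus strand) encodes a receptor that is expressed beside Notch1 in skin. It had 5157 and 6592 counts in I53A replicates 1 and 2, or 328 and 291 CPM, and 2950 and 2850 counts in CTL replicates 1 and 2, or 176 and 189 CPM. Both I53A libraries lay above both CTL libraries, and the gap between the groups was wider than the spread within either. The mean was 309 ± 26.6 CPM in I53A and 182 ± 9.37 CPM in CTL (SD, n = 2 each), with a fitted log2 fold change of 0.76 ± 0.14 (SE), an interval of 1.37- to 2.10-fold and an adjusted p of 0.00832 (edgeR quasi-likelihood test). Among all tested genes 3.16% had a smaller p. The call was lost without CTL replicate 1 (adjusted p = 0.186) and without CTL replicate 2 (adjusted p = 0.117), in edgeR fits where the lone CTL library is assumed to vary like the I53A pair, with log2 fold changes of 0.71 and 0.82. It was also lost when each library was corrected for trends along GC content and transcript length (log2 fold change 0.30, adjusted p = 0.187), a setting that moved the median of all genes by -0.13 and left Notch2 0.44 above that median.

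Notch1 (ENSMUSG00000026923.15, chromosome 2 from 26457903 to 26516663, minus strand) is the receptor most closely tied to keratinocyte differentiation. It had 806 and 835 CPM in I53A and 831 and 864 CPM in CTL, from 12666 to 18951 counts a library. The groups overlapped, and the log2 fold change was -0.05 ± 0.13 (SE, adjusted p = 0.913). Its interval ran from 0.788- to 1.19-fold, so a change as large as that of Notch2 lay outside it. Under the GC and length correction Notch1 was called lower (log2 fold change -0.56, or -0.42 relative to the median of all genes, adjusted p = 0.0250).

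The ratio of these receptors within a library, which does not rest on scaling between libraries, differed between the groups. Per kb of annotated exon, the Notch1 level was 1.86 and 2.18 times that of Notch2 in the I53A libraries and 3.59 and 3.46 times in the CTL libraries. The ratio was lower in both I53A libraries than in both CTL libraries, by 0.81 on the log2 scale. No test was made of this ratio, since a two-sided exact permutation test cannot go below 0.333 with 2 libraries against 2. The difference between the log2 fold changes of Notch2 and Notch1 was 0.69 to 0.92 over the 15 alternatives, and 0.87 under the GC and length correction.

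Notch3 (ENSMUSG00000038146.8, chromosome 17 from 32120820 to 32166852, minus strand) encodes a receptor known best from vascular smooth muscle and pericytes. It had 119 and 147 CPM in I53A and 96.1 and 133 CPM in CTL. The ranges overlapped, with a fitted log2 fold change of 0.22 ± 0.19 (SE, adjusted p = 0.623) and an interval of 0.874- to 1.55-fold. Its log2 fold change turned to -0.33 under the GC and length correction, without passing. Notch3 lies 1.85 Mb from the targeted gene Ring1 on the same chromosome. Dll1, at 18.6 Mb, and Notch4, which starts closer to Ring1 (34564268, against a Ring1 end at 34024680), lie there too. For Notch4 the log2 fold change was 0.02 ± 0.61 (SE), from 21 to 33 counts a library. An effect of the distance to Ring1 was not tested. In the same libraries the list of 8 pericyte and vascular smooth muscle markers summed to 166 to 218 CPM in I53A and 86.6 to 87.5 CPM in CTL. Of its 7 tested genes 1 rose, Cspg4, and none fell, beside 5.68% of all tested genes higher and 1.04% lower. Cspg4 held most of the sum (165 ± 38.6 CPM in I53A and 68.8 ± 0.0198 CPM in CTL, SD, n = 2 each). Rgs5, a defining pericyte marker, was at 11.7 and 5.60 CPM in I53A and 6.85 and 3.71 CPM in CTL, and the part of such cells in the Notch3 level was not tested.

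**Figure D2:**
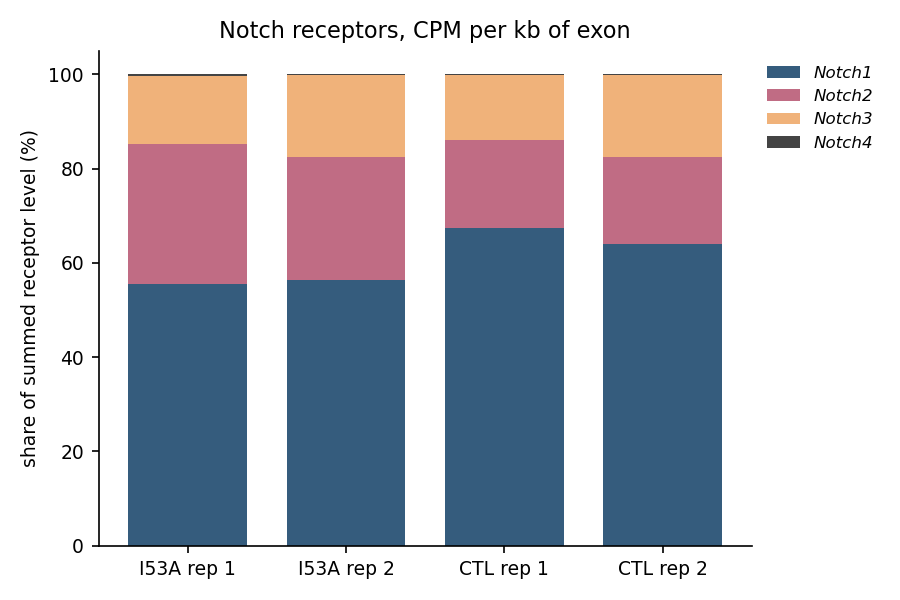
Share of each Notch receptor in the summed receptor level of a library, in percent, from CPM per kb of annotated exon, with the 2 I53A libraries to the left of the 2 CTL libraries. The Notch2 share was 29.8% and 25.9% in I53A and 18.8% and 18.5% in CTL, and the Notch1 share was 55.5% and 56.4% in I53A and 67.3% and 64.0% in CTL.

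Expressed as shares of the summed level of the 4 receptors per kb of exon, Notch2 made up 29.8% and 25.9% in I53A and 18.8% and 18.5% in CTL. Notch1 made up 55.5% and 56.4% in I53A and 67.3% and 64.0% in CTL. The shares of Notch3 overlapped between the groups (14.4% and 17.5% in I53A, 13.7% and 17.4% in CTL). Notch4, the receptor of endothelial cells, held at most 0.255% in any library, from 21 to 33 counts.

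None of the 3 ligand genes was called. Their log2 fold changes were negative, as were those of 7504 of the 14550 tested genes, and each interval spanned 0. Jag2 (ENSMUSG00000002799.6, chromosome 12 from 112907819 to 112929776, minus strand), a Jagged ligand of basal keratinocytes, had 170 and 146 CPM in I53A and 195 and 190 CPM in CTL. Both I53A libraries were below both CTL libraries, as were those of 23.5% of all tested genes. The log2 fold change was -0.28 ± 0.14 (SE, adjusted p = 0.331, edgeR), with an interval of 0.660- to 1.02-fold. Under the GC and length correction Jag2 was called lower (log2 fold change -0.78, or -0.64 relative to the median of all genes, adjusted p = 0.00607).

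Jag1 (ENSMUSG00000027276.7, chromosome 2 from 137081456 to 137116644, minus strand), the Jagged ligand that is also a target of Wnt signalling in hair follicles, had 101 and 131 CPM in I53A and 136 and 131 CPM in CTL. Replicate 2 of I53A lay inside the CTL range, and the log2 fold change was -0.20 ± 0.16 (SE, adjusted p = 0.610). Dll1 (ENSMUSG00000014773.13, chromosome 17 from 15367354 to 15376872, minus strand) is a Delta-like ligand known from epidermal stem cell clusters. It had 43.8 and 25.5 CPM in I53A and 37.3 and 32.1 CPM in CTL. The I53A libraries lay on both sides of the CTL pair, with a fitted log2 fold change of -0.02 ± 0.25 (SE, adjusted p = 0.985). Summed over the 3 ligands the level was 303 to 314 CPM in I53A and 352 to 368 CPM in CTL, and no test was made of this sum.

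Hes1 (ENSMUSG00000022528.8, chromosome 16 from 30064384 to 30067796, plus strand) is the bHLH repressor most often used to read Notch activity in epidermis. It had 599 and 1000 counts in I53A, or 38.1 and 44.1 CPM, and 466 and 481 counts in CTL, or 27.7 and 31.9 CPM. Both I53A libraries lay above both CTL libraries, which was also so for 24.5% of all tested genes. The mean was 41.1 ± 4.22 CPM in I53A and 29.8 ± 2.92 CPM in CTL (SD, n = 2 each), a log2 fold change of 0.47 ± 0.19 (SE). This did not pass (unadjusted p = 0.0300 and adjusted p = 0.200, edgeR quasi-likelihood test), and the interval ran from 1.04- to 1.84-fold. The log2 fold change was 0.36 to 0.57 over the 15 alternatives, with an adjusted p of 0.0809 to 0.718, and it was 0.44 under the GC and length correction.

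Hey1 (ENSMUSG00000040289.8, chromosome 3 from 8663359 to 8667256, minus strand), a HEY family repressor prominent in vessels and dermal papilla, was close to the limit of detection with 35 and 22 counts in I53A and 15 and 33 counts in CTL. Its 2.23 and 0.970 CPM in I53A and 0.893 and 2.19 CPM in CTL overlapped. The interval spanned 0.355- to 2.79-fold, so a change within that range was not resolved.

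Rbpj (ENSMUSG00000039191.12, chromosome 5 from 53466152 to 53657362, plus strand), the DNA-binding factor that all canonical Notch signals share, had 51.4 and 46.6 CPM in I53A and 47.9 and 49.6 CPM in CTL. The CTL pair lay between the I53A libraries, and the log2 fold change was 0.01 ± 0.16 (SE, adjusted p = 0.991) with an interval of 0.781- to 1.29-fold. Lfng (ENSMUSG00000029570.5, chromosome 5 from 140607320 to 140615545, plus strand) encodes the Fringe enzyme that adds sugars to Notch and shifts its response between Delta-like and Jagged ligands. It had 33.1 and 45.0 CPM in I53A and 45.1 and 36.7 CPM in CTL, overlapping ranges with a fitted log2 fold change of -0.06 ± 0.20 (SE, adjusted p = 0.926). GENCODE M21 annotates transcripts on the opposite strand over exons of Notch1, Notch3 and Dll1 and one on the same strand over Notch2, and the sources used here do not say whether counting used strand.

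**Figure D3:**
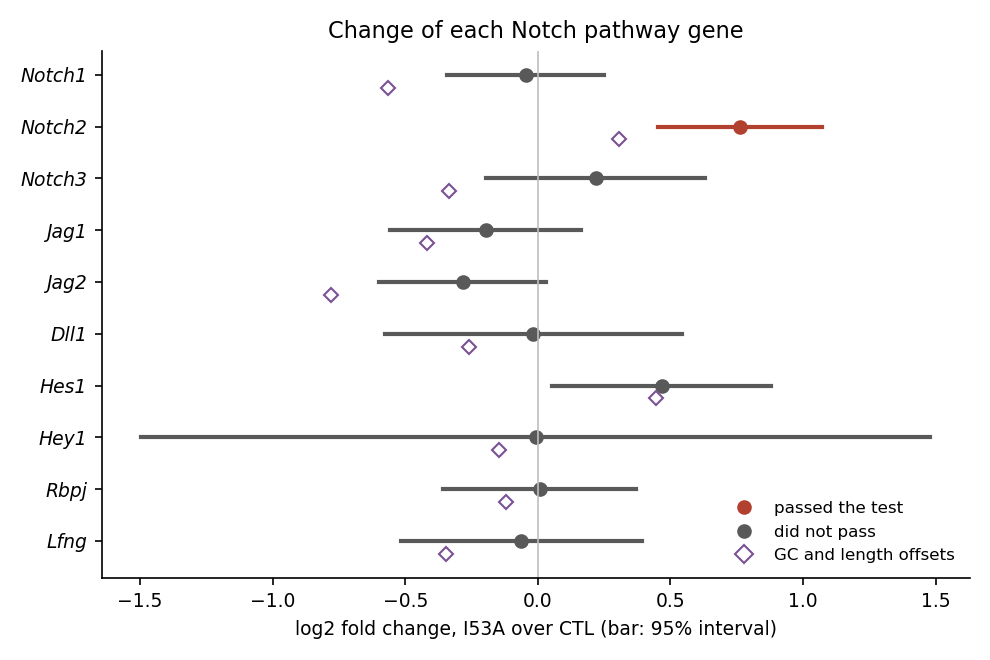
Log2 fold change of each Notch pathway gene, I53A over CTL, with its 95% interval as a bar (edgeR quasi-likelihood fit, 2 libraries a group), red where the adjusted p was under 0.05. Open diamonds give the log2 fold change under the GC and length correction. The interval of Notch2 runs from 0.45 to 1.07 and that of Hey1 from -1.50 to 1.48, and every diamond lies left of its circle.

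Under the correction 0 of the 10 genes were called higher and 2 lower, beside 5.04% of all tested genes higher and 5.24% lower. The size of the shift differed between the 10 genes. It was -0.52 for Notch1, -0.46 for Notch2, -0.55 for Notch3 and -0.50 for Jag2 on the log2 scale, and -0.02 for Hes1. The longest transcripts of Notch1, Notch2 and Notch3 are longer than those of 96.9%, 97.9% and 94.3% of the tested genes, and the transcript of Jag2 has more G and C (61.9%) than those of 98.3% of them, while Hes1 is shorter (1.47 kb) than most and near the median in G and C (50.7%, beside a median of 49.8%). The direction was the same with and without the correction for Notch2 and Hes1 (higher) and for Notch1, Jag1, Jag2, Dll1, Hey1 and Lfng (lower), and it turned for Notch3 (-0.19 relative to the median of all genes). That of Rbpj was -0.12 under the correction and 0.02 relative to the median of all genes, which moved as far.

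Per kb of annotated exon Notch1 was the most abundant of the 10 transcripts in both groups, with 57.7 ± 1.46 CPM per kb in I53A and 59.5 ± 1.605 in CTL (SD, n = 2 each). Notch2 was the second in I53A (28.7 ± 2.46 CPM per kb) and the fourth in CTL (16.9 ± 0.869), where Jag2 (27.6) and Jag1 (22.8) stood above it and outside its range. In I53A the ranges of Jag2, Hes1, Jag1, Notch3 and Lfng overlapped from each to the next, at 22.7, 20.2, 19.9, 16.5 and 15.6 CPM per kb, so their order is not resolved. The same held in CTL for Notch2, Lfng, Hes1 and Notch3 at 16.9, 16.3, 14.6 and 14.2 CPM per kb. Dll1 (8.22 in I53A and 8.23 in CTL), Rbpj (3.84 and 3.82) and Hey1 (0.489 and 0.472) followed in that order in both groups without overlap. With the length of the longest transcript in place of all exons, Jag2 (31.0 CPM per kb) stood above Notch2 (29.5) in I53A. Jag1 stood at 0.708 and 1.07 times Jag2 in the I53A libraries and at 0.830 and 0.823 times in the CTL libraries, so that this ratio overlapped. Hes1 was 27.4 and 72.9 times Hey1 in I53A and 49.8 and 23.4 times in CTL, also overlapping.

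Beyond these genes, 88 others of the pathway were listed by role, of which 80 were tested. Dlk1, Mfap2 and Dtx4 rose, 77 did not pass, and 0 were lower by edgeR's quasi-likelihood test. At an unadjusted p under 0.05, 8 were higher and 9 were lower, beside 13.01% higher and 5.69% lower among all tested genes, and DESeq2 called 4 of the 80 lower (Bhlhe40, Dtx2, Krt10 and Tslp), beside 1.51% of all genes, and limma-voom 0. The median log2 fold change of the 80 was -0.05. The 3 higher calls in 80 genes stand beside the 5.68% of all tested genes that were higher.

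**Figure D4:**
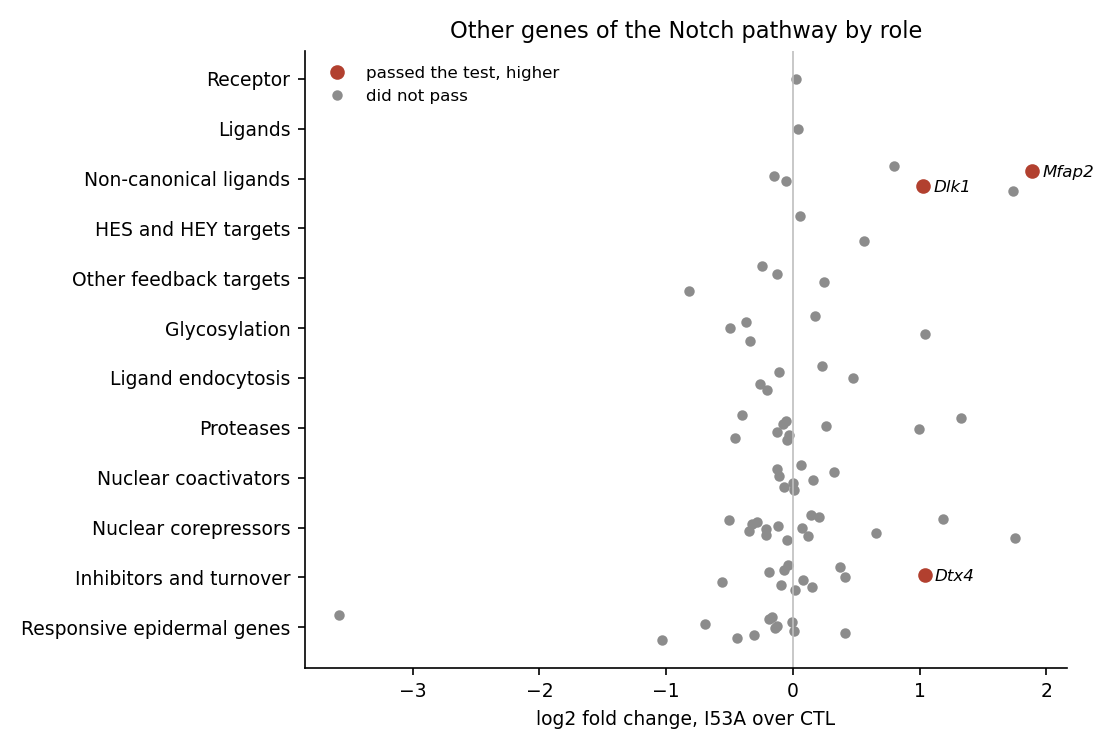
Log2 fold change, I53A over CTL, of the 80 tested genes of the wider Notch pathway, 1 point a gene, in rows by role, red where the adjusted p was under 0.05. Mfap2, Dlk1 and Dtx4 are the 3 that rose, at 1.89, 1.02 and 1.04, and the other 77 did not pass.

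Dlk1 and Mfap2 are both non-canonical partners of Notch. Dlk1, a Delta-like protein without the domain that activates Notch, had 38.2 and 35.9 CPM in I53A and 20.6 and 15.7 CPM in CTL (log2 fold change 1.02 ± 0.21, SE, adjusted p = 0.0146). Mfap2, a microfibril protein reported to bind Notch1 and Jag1, had 10.4 and 8.64 CPM in I53A and 1.73 and 3.45 CPM in CTL (log2 fold change 1.89 ± 0.41, SE, adjusted p = 0.0194). For both genes the I53A libraries lay above both CTL libraries, as for 24.5% of all tested genes. In the same libraries the 10 fibroblast markers summed to 3383 to 3726 CPM in I53A and 2915 to 3127 CPM in CTL. Of these, 2 genes, Fbn1 and Dcn, rose and none fell, beside 5.68% of all tested genes higher and 1.04% lower. Postn, the highest of that list in CPM, had 1036 and 1461 CPM in I53A and 1371 and 1483 CPM in CTL. Hair follicle markers summed to 1154 to 1440 CPM in I53A and 962 to 1079 CPM in CTL. Lhx2, Hoxc13 and Krt79 were higher among 9 tested and none was lower, beside the same shares of all tested genes. Lef1, the highest of the follicle list in CPM, had 398 and 568 CPM in I53A and 499 and 625 CPM in CTL. The part of fibroblasts and of follicle cells in the levels of Notch2, Dlk1 and Mfap2 was not tested, and in RNA from a sorted population more cells of a type and more RNA per cell cannot be told apart.

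Dtx4, a Deltex ubiquitin ligase of the group that acts on Notch trafficking, rose, with 17.6 and 16.9 CPM in I53A and 8.93 and 7.82 CPM in CTL (log2 fold change 1.04 ± 0.26, SE, adjusted p = 0.0374). Its relative Dtx2 had 60.4 and 56.1 CPM in I53A and 80.4 and 91.1 CPM in CTL and did not pass (adjusted p = 0.0629, edgeR). Dtx2 was called lower by DESeq2 (adjusted p = 0.0398) and by edgeR with a replicate block (0.0483). It was also called lower by edgeR under the GC and length correction, alone (0.00587) or with the block (0.00189). The other settings with all 4 libraries did not call it. All 3 pathway calls were lost without CTL replicate 1 (adjusted p = 0.0809 for Dlk1, 0.239 for Mfap2 and 0.222 for Dtx4) and without CTL replicate 2 (0.226, 0.0607 and 0.315, edgeR), and Dtx4 was also lost under the GC and length correction (0.0813). The log2 fold changes in these fits were 1.24 and 0.85 for Dlk1 and 1.46 and 2.46 for Mfap2. For Dtx4 they were 1.14 and 0.95, and 0.78 under the correction.

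The machinery between ligand and target held no call by edgeR's test on all 4 libraries, without block or correction. Of 10 tested protease genes 0 passed, among them Ncstn, a subunit of γ-secretase (178 and 140 CPM in I53A, 190 and 145 CPM in CTL). Of the 7 genes of γ-secretase subunits, 2 were higher and 1 was lower in I53A without overlap of the groups. Among all tested genes 24.5% were higher and 23.5% lower in this way. Adam17, a sheddase, had 59.0 and 66.6 CPM in I53A and 86.7 and 86.1 CPM in CTL (adjusted p = 0.117), and Adam10, the main Notch sheddase, 91.9 and 93.5 CPM in I53A and 97.3 and 94.3 CPM in CTL. Of 5 glycosylation genes, with Eogt the highest in CPM (296 and 212 CPM in I53A, 306 and 335 CPM in CTL), and of 5 genes of ligand endocytosis, with Mib1 (100 and 116 CPM in I53A, 136 and 113 CPM in CTL), none passed. Nor did any of 8 coactivators, such as Crebbp (788 and 838 CPM in I53A, 800 and 815 CPM in CTL), or of 15 corepressors. Under the GC and length correction edgeR called Adam17 lower, alone (adjusted p = 0.0395) or with the replicate block (0.0271). Coactivator and corepressor genes were also called lower in these fits, and a glycosylation gene with the block. Of all tested genes 5.24% and 6.47% were lower in these fits. With the block alone a corepressor was called higher.

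Of the other genes listed as HES and HEY family members or as feedback targets none passed by edgeR's test. They were listed by family or role, and their response to Notch was not tested in these data. Of the 7 further HES and HEY genes 5 were too low to test, Heyl had 8.53 and 7.32 CPM in I53A and 6.25 and 8.95 CPM in CTL, and Hes6 had 3.56 and 7.98 CPM in I53A and 5.06 and 2.98 CPM in CTL. Nrarp, a feedback inhibitor that Notch induces, had 28.5 and 41.1 CPM in I53A and 39.2 and 37.0 CPM in CTL, and the groups overlapped (log2 fold change -0.12 ± 0.21, SE, adjusted p = 0.832). Bhlhe40, a bHLH repressor placed here in the list of feedback targets, had 50.01 and 77.0 CPM in I53A and 145 and 79.7 CPM in CTL. Both I53A libraries lay below both CTL libraries, as for 23.5% of all tested genes. Its log2 fold change was -0.82 ± 0.28 (SE) and did not pass by edgeR (adjusted p = 0.126), while DESeq2 called it lower (adjusted p = 0.0346). It was also called lower by edgeR under the GC and length correction, alone (0.0385) or with the replicate block (0.0154). The endothelial ligand Dll4 had 0.700 and 1.10 CPM in I53A and 1.01 and 0.795 CPM in CTL, and Dll3 was too low to test.

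Of 12 epidermal genes, some of them also markers of epidermal layers, reported to respond to Notch none passed by edgeR's test. Their log2 fold changes were 2 positive and 10 negative, with a median of -0.18. Over all 14550 tested genes 7504 were negative and the median was -0.01. The list was not split by the direction of each reported response, so the signs together are not a measure of Notch activity. Krt1, the spinous keratin, had 1472 and 2736 CPM in I53A and 2053 and 2542 CPM in CTL. Krt10, its partner, had 552 and 860 CPM in I53A and 1080 and 1203 CPM in CTL (log2 fold change -0.69 ± 0.20, SE, adjusted p = 0.0711, edgeR). Both I53A libraries were below both CTL libraries for Krt10, as for 23.5% of all tested genes. Replicate 1 of I53A was the lowest library for both keratins. Without I53A replicate 2 the edgeR fit called Krt1 and Krt10 lower, with log2 fold changes of -0.64 and -1.05. Without I53A replicate 1 neither keratin was called, and Trp63, the basal layer regulator also among the 12, was called lower (log2 fold change -0.53). In these fits the lone I53A library is assumed to vary like the CTL pair. Both fits called more of all genes lower than the fit to all 4 libraries did. Krt10 was also called lower by DESeq2 (adjusted p = 0.00936), without the low-count filter (0.0205), with a replicate block (0.0210) and under the GC and length correction alone (0.0126) or with the block (0.00459). Tslp, a cytokine that keratinocytes without Notch signals are known to release, had 0 and 6 counts in I53A and 43 and 19 counts in CTL, and its adjusted p was 0.0558 by edgeR and 0.0346 by DESeq2. EdgeR called Tslp lower without the low-count filter (0.0472) and with a replicate block (0.0357). It did so too under the GC and length correction, alone (0.0434) or with the block (0.0284).

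**Figure D5:**
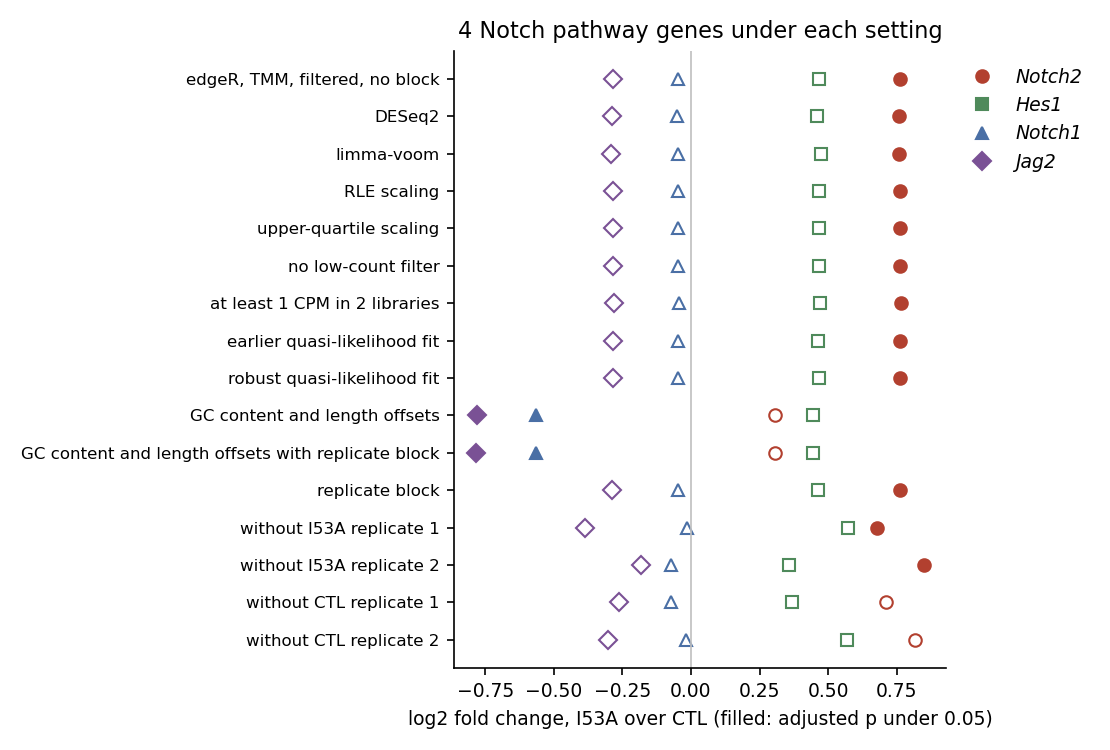
Log2 fold change, I53A over CTL, of Notch2, Hes1, Notch1 and Jag2 under the reported fit (top row) and the 15 alternatives, filled where the adjusted p was under 0.05. Notch2 stays to the right of 0 in every row (0.30 to 0.85) and is unfilled in 4 of them, and Notch1 and Jag2 are filled, to the left of 0, only in the 2 rows with that correction (GC content and length offsets).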

How the data were processed

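The values deposited by the authors are whole-number counts per gene symbol, not normalized, 1 file a library. Per the labels' protocols, RNA of the sorted cells was amplified with a NuGEN Ovation kit before single-read sequencing. Tools named in the submitters' processing notes are HTSeq 0.6.1, TopHat2 2.0.13, Cufflinks 2.2.1 and DESeq2 1.6.3, with mm10 as the build. Annotation and strand setting: not given in the sources used here.

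Groups and replicate numbers came from the sample titles. Genes passed filterByExpr (minimum count 10, minimum total 15), were scaled with TMM and tested with edgeR 4.0.16 in R 4.3.3 (glmQLFit and glmQLFTest, two-sided, no block, adjusted p under 0.05). CPM are counts over TMM-scaled library sizes, and the SE and the 95% interval come from the fitted coefficient, its F statistic and its degrees of freedom. At least 99.89% of counts fell in tested genes. Positions, exon length and GC content came from GENCODE M21 on GRCm38, the assembly of mm10, for 97.3% of symbols.

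Alternatives tried: limma-voom with limma 3.58.1, DESeq2 1.42.0, upper-quartile or RLE scaling, testing every gene with a count, requiring 1 CPM in 2 libraries, a robust and an earlier (legacy) quasi-likelihood fit, loess offsets (span 0.5) that correct each library for GC content and transcript length, a replicate block, both together, and each library left out over the same genes. The text names the 10 genes, called genes of the wider lists and the gene of highest mean CPM of some roles and marker lists. Other genes named beside them (Adam10, Adam17, Bhlhe40, Dtx2, Dll3, Hes6, Nrarp, Krt10, Tslp, Trp63, Rgs5, Epcam) were chosen after their values were seen. The genes and lists were chosen with earlier results of these data known. The values of 1 gene of the wider list are not reported here.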

Additional observations from a re-analysis of the deposited data

How the results depend on the processing

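The same 1 Notch gene, Notch2, was called in 11 of 15 alternatives, and its log2 fold change was positive in all 15 (0.30 to 0.85). With offsets for GC content and length, alone or with a replicate block, 0 Notch genes were higher and 2 (Notch1 and Jag2) lower, and over the libraries left out in turn 0 to 1 were higher. The cause was not tested. The wider list had 2 genes higher with the offsets and 4 with the block, and 0 to 6 over the libraries left out. It had 4 genes lower with DESeq2 (1.51% of all genes), 2 without the low-count filter (0.965%), 9 with the offsets (5.24%), 12 with the offsets and the replicate block (6.47%), 3 with the replicate block alone (1.59%) and 0 to 5 over the libraries left out. Over all genes 977 were called, 1496 with the offsets (733 higher and 763 lower, against 826 and 151 without), 1829 with the offsets and the block, and 297 (without CTL replicate 1) to 1520 (without I53A replicate 2) over the libraries left out. The values of same-numbered libraries showed no pairing (correlation of deviations 0.05 across 14550 genes), but this single correlation cannot exclude one. The block stands for a shared replicate number, and the sample titles do not say whether such libraries shared a litter or batch. With the block 1274 genes were called and Notch2 kept its call (adjusted p = 0.0044). Depth limits Hey1 most, at 15 to 35 counts a library, while the other 9 genes had at least 466 counts in each library.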
